A study of Rattus norvegicus with 12 samples.

Results

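Rat Schwann cells cultured with macrophages that the pancreatic cancer line MIA PaCa-2 had induced (MiaTAM co-culture) were compared with Schwann cells cultured alone. The comparison takes 3 RNA sequencing libraries a side, 6 of the 12 libraries of the study, and covers every gene that passed a filter on low counts, 12360 of 30957 genes in the deposited table. The other 6 libraries are 3 from Schwann cells with macrophages induced by BxPC-3 (BxTAM co-culture) and 3 from Schwann cells with monocyte-derived macrophages (MDM co-culture), and they enter the same fit. TAM stands for tumour-associated macrophage, and MIA PaCa-2 and BxPC-3 are established human lines of pancreatic ductal adenocarcinoma. The treatment labels read culture with MiaTAMs, culture with BxTAMs, and untreated for both the MDM co-culture and the cells alone. The MDM libraries are titled PBMC, and the cells alone are titled Rsc96 but headed HSC96 in the table. RSC96 is a rat Schwann cell line, and rat is the labelled organism of every library. The species of the macrophages, the format, length and cell ratio of the co-culture, and whether macrophages were removed before RNA extraction are not given in the labels. Separate cultures for the 3 libraries of a group are not mentioned either, so p-values measure only the spread between these libraries, which may be technical. The design text names 1 more kind of TAM, not analysed here.

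Schwann cells ensheathe the axons of peripheral nerves. After a nerve is injured they lose myelin, divide and enter a repair state, in which they secrete growth factors, cytokines and matrix and take part in the recruitment of macrophages. Pancreatic ductal adenocarcinoma often grows along nerves, a behaviour called perineural invasion, and Schwann cells and macrophages are both found around such nerves.

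The MiaTAM libraries held 19043650, 16555215 and 18615916 counts and the libraries of cells alone 17491359, 19351476 and 18682148, and scaling factors of all 12 libraries lay between 0.98 and 1.01. Levels are given as CPM, the usual count unit scaled to the library total multiplied by its scaling factor, and not corrected for gene length. The first principal component, 56.5% of the variance, separated the cells alone from every co-culture library. The labelled cell type was checked against its markers. Sox10 and Cdh19, which mark the Schwann lineage, had 0 counts in all 6 libraries, and S100b had 9 counts over the 3 MiaTAM libraries and 12 over the 3 of cells alone. The Schwann cell markers summed to between 1600.1 and 1751 CPM in MiaTAM co-culture and between 1740.3 and 1771 CPM alone, nearly all of it the intermediate filament gene Vim, and of the 5 tested of 11 listed markers 2 were higher and 2 lower. Macrophage markers were low in both groups. Of 26 listed, 20 stayed under 1 CPM in both groups, 7 were at 0 in MiaTAM co-culture and 12 alone, and their sum was 65.1 to 67.8 CPM in MiaTAM co-culture and 28.2 to 31.4 CPM alone. Adgre1, Mrc1, Tyrobp, C1qa, Marco and Cd86 had no count in either group, and the pan-leukocyte gene Ptprc had 2 counts in MiaTAM co-culture and 0 alone. The sum was carried by Itgax, Csf1r, Cd14, Lcp1 and Cd68, all called higher.

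Most of the tested genes differed between MiaTAM co-culture and cells alone, mostly by small amounts. By the quasi-likelihood test of edgeR, with p-values adjusted by Benjamini-Hochberg, 8041 of the 12360 tested genes (65.1%) were called at an adjusted p under 0.05, 3877 higher (31.4%) and 4164 lower (33.7%) in MiaTAM co-culture. With library factors from upper quartiles the split was 4664 higher and 3446 lower, since that scaling moved the median gene up by 0.0739 on the log2 scale, to 0.0676. At a change of 2-fold or more, 631 genes were higher (5.11%) and 473 lower (3.83%), and past 4-fold 126 genes were higher and 50 lower. In 8300 genes (67.2%) the 3 MiaTAM libraries did not overlap the 3 libraries of cells alone. The other co-cultures differed from cells alone about as widely. With BxTAM 7524 genes were called, 934 of them at 2-fold or more, and with MDM 8047, 1046 of them at 2-fold or more. The share called grew with the level of the gene, from 44% in the lowest of 5 equal groups to 80.1% in the highest. The level here is the larger of the mean CPM in MiaTAM co-culture and in cells alone.

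**Figure D1:**
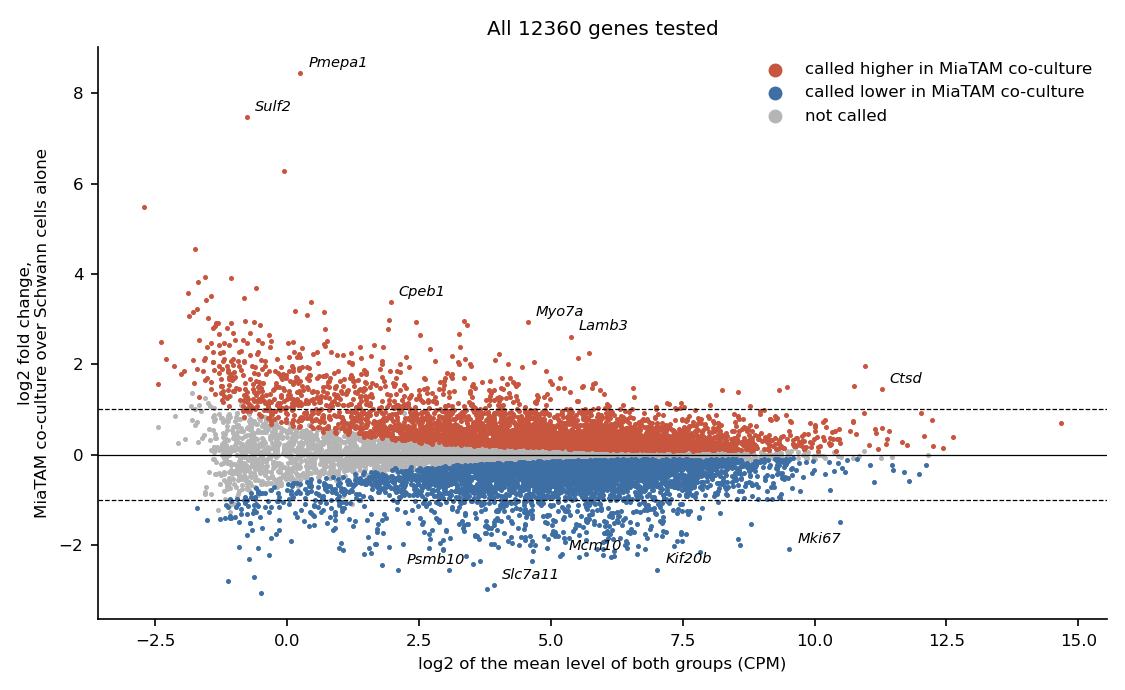
Log2 fold change of MiaTAM co-culture over Schwann cells alone against the log2 of the mean level of both groups in CPM, for all 12360 tested genes; red and blue points were called higher and lower in MiaTAM co-culture, grey points were not called, and dashed lines mark 2-fold. The 631 genes that rose by 2-fold or more lie mostly at low levels, while falls such as Mki67 and Kif20b reach the higher levels.

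The largest rises and falls were taken among called genes whose groups did not overlap. At 5 CPM or more the rises included genes of ion transport, adhesion and the cytoskeleton. Cpeb1 encodes a protein that binds messenger RNA and controls its polyadenylation (chr1:143171264-143278485 in Rnor_6.0). It had 7.35, 6.81 and 7.15 CPM in the 3 MiaTAM libraries, against 0.625, 0.714 and 0.692 CPM in cells alone. All 3 MiaTAM values lay far above all 3 of cells alone, and the log2 change was 3.38 ± 0.19 (SE; adjusted p = 3.49e-12, from the same edgeR test, as for every adjusted p below). Myo7a, an unconventional myosin (chr1:163001875-163071508), had 40.8, 41.9 and 42.7 CPM in MiaTAM co-culture, against 5.17, 5.81 and 5.32 CPM alone. Its libraries were tight within each group, and it rose by 2.94 ± 0.078 on the log2 scale (adjusted p = 4.67e-17). Lamb3, the beta chain of the laminin of hemidesmosomes (chr13:112031594-112073186), had 68.8, 72.4 and 72.6 CPM in MiaTAM co-culture, against 11, 11.3 and 12.7 CPM alone, a log2 change of 2.61 ± 0.073. It averaged 73.1 ± 2.66 CPM in MDM co-culture, and MiaTAM and MDM did not differ by the test (adjusted p = 0.653). The other genes among the 12 largest rises were Cyb561, a transmembrane cytochrome (2.98), Lrrc75b (2.96), Stac2, an adaptor of voltage-gated calcium channels (2.92), Chst11, a chondroitin sulfotransferase (2.88), Olfm2, an olfactomedin (2.79), Csdc2, an RNA-binding protein (2.68), Atp1b2, a beta subunit of the sodium pump (2.64), Adap1, an ArfGAP (2.42), and Adgrv1, an adhesion receptor (2.39), all as log2 changes.

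Between 1 and 5 CPM, Pmepa1, a TGF-β-induced inhibitor of SMAD signalling, had 51, 43 and 34 counts in the MiaTAM libraries, against 0 in each library of cells alone. Sulf2, an enzyme that removes sulfate from heparan sulfate outside the cell, had 34, 14 and 17 counts in the MiaTAM libraries, again against 0 in each library of cells alone. Taking 3 counts over the 3 libraries of cells alone as the floor, Pmepa1 was 44.1-fold higher and Sulf2 22.4-fold higher in MiaTAM co-culture. The 95% interval of the ratio from counting error alone began at 35.3-fold for Pmepa1 and 17.7-fold for Sulf2. Both averaged more in MDM co-culture, Pmepa1 4.44 CPM against 2.36 CPM in MiaTAM and Sulf2 2.39 CPM against 1.18 CPM. In BxTAM co-culture Pmepa1 averaged 0.333 CPM and Sulf2 0.817 CPM. MiaTAM exceeded BxTAM for Pmepa1 by 2.81 ± 0.31 on the log2 scale (adjusted p = 1.03e-05), and for Sulf2 they did not differ by the test (adjusted p = 0.286). Pmepa1 and Sulf2 were the 2 genes that reached 1 CPM in MiaTAM co-culture with no count alone, and 0 genes showed the reverse. Tspan18, a tetraspanin, averaged 1.9 ± 0.1 CPM in MiaTAM co-culture and had 1 count over the 3 libraries of cells alone, and Rftn2, a lipid raft protein, rose by 3.69 ± 0.49 on the log2 scale.

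The largest falls were led by genes of the cell cycle, with 2 others. Slc7a11, the cystine importer that feeds glutathione synthesis (chr2:139453774-139528162), had 3.6, 3.37 and 3.79 CPM in MiaTAM co-culture, against 27.5, 25.6 and 26.6 CPM alone. Every MiaTAM library lay far below every library of cells alone, with a log2 change of -2.88 ± 0.099 (adjusted p = 1.36e-15). Psmb10, a catalytic subunit of the immunoproteasome, averaged 1.24 ± 0.22 CPM in MiaTAM co-culture and 7.32 ± 1.2 CPM alone (SD, n = 3 each), a log2 change of -2.56 ± 0.21. Kif20b, a kinesin of cytokinesis (chr1:253221812-253275490), had 42.3, 33.3 and 37.1 CPM in MiaTAM co-culture, against 222, 210.4 and 229 CPM alone, and it fell by 5.85-fold. The rest of the 12 act in the copying, repair and sharing out of chromosomes. They were Ns5atp9, the PCNA-associated factor (-2.98), Gen1 and Eme1, which resolve recombination junctions (-2.43 and -2.24), Esco2, a cohesin acetyltransferase (-2.37), Cenpu of the centromere (-2.36), the mitotic kinase Pbk (-2.26), the replication initiation factor Mcm10 (-2.24), cyclin A2, Ccna2 (-2.24), and the spindle kinesin Kif15 (-2.22), given as log2 changes. Between 1 and 5 CPM the largest falls were Prr22, the histone gene Hist1h2bk, the aldehyde dehydrogenase Aldh3a1 and the interferon-induced Ifi44l, with log2 changes of -2.31, -2.2, -2.19 and -2.12. Histone genes are near-copies of each other, so reads may have been split or shared among them.

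**Figure D2:**
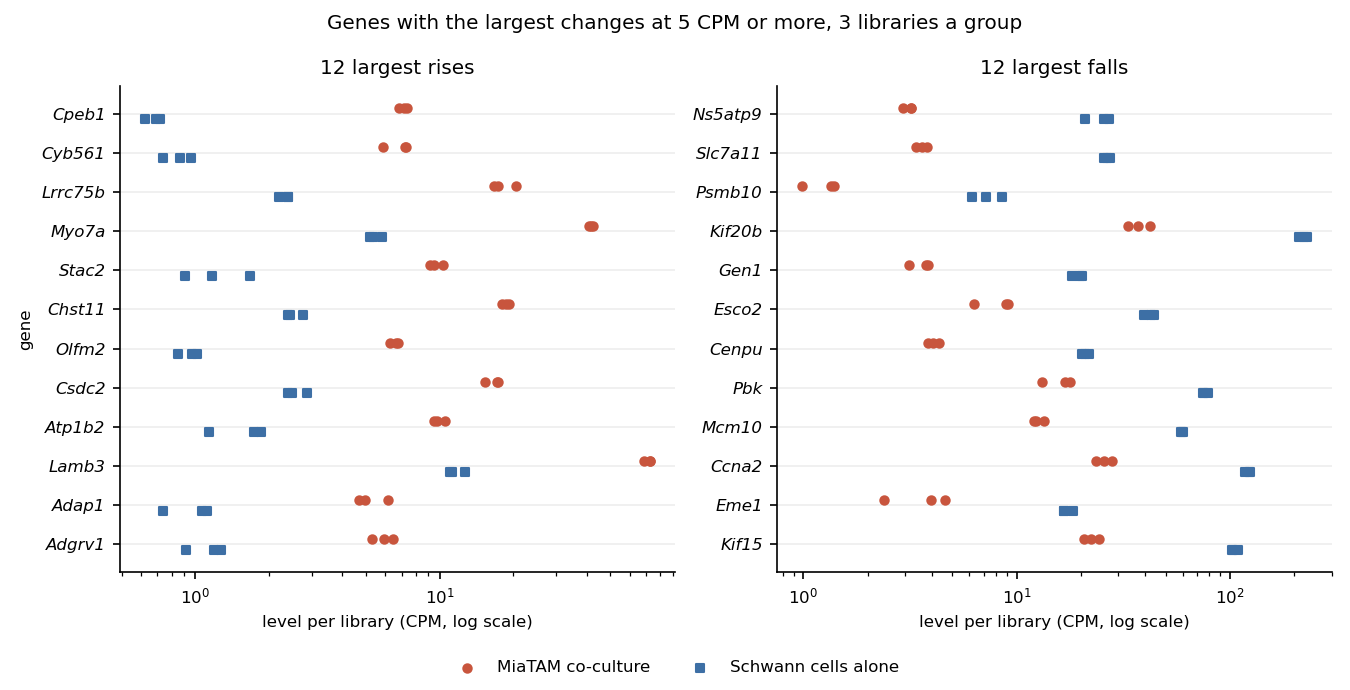
Level of each gene in CPM on a log axis, with a circle for each of 3 MiaTAM libraries and a square for each of 3 libraries of cells alone, for the 12 largest rises and 12 largest falls at 5 CPM or more. Only genes whose groups did not overlap were eligible, so the gaps between groups were set by the choice of genes. Among the falls Kif20b, Ccna2 and Kif15 stood above 100 CPM alone.

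DNA replication genes were lower in MiaTAM co-culture without exception. All 34 listed genes were tested and all 34 fell, where 33.7% of all tested genes fell, and 18 fell by 2-fold or more, where 3.83% of all did. Their median log2 change was -1.10, against -0.0063 over all tested genes. These are bulk libraries, so fewer cycling cells and less RNA per cell cannot be told apart. The MCM complex is the helicase that opens DNA at the replication fork. Mcm6 had 104, 109 and 108 CPM in MiaTAM co-culture, against 255, 253 and 249.5 CPM alone. The groups stood well apart, with a log2 change of -1.24 ± 0.039 (adjusted p = 4.46e-16). Mcm4 averaged 75.1 ± 2.36 CPM in MiaTAM co-culture and 282 ± 7.57 CPM alone (-1.91 ± 0.048), and Mcm3 44.7 ± 1.63 and 147 ± 1.57 CPM (-1.72 ± 0.046). The other subunits fell by between 0.79 (Mcm2) and 2.01 (Mcm7) on the log2 scale. Cdc6 and Orc1, which load the helicase at origins, fell by 2.07 and 1.83, and Cdc45, which activates it, fell by 1.82. Of the polymerases, Pola1, the catalytic subunit of the priming polymerase α, averaged 41.1 ± 0.889 CPM in MiaTAM co-culture and 121 ± 2.56 CPM alone (-1.56 ± 0.048), and Pole, that of the leading strand, fell by 1.74. The sliding clamp Pcna fell by 1.45. The smallest falls in the list were those of Pola2 (-0.56), Pold3 (-0.60) and Rpa1 (-0.60).

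The supply of DNA precursors went the same way. All 21 listed nucleotide genes fell, where 33.7% of all tested genes did. The fall was 2-fold or more in 6, where 3.83% of all genes fell as far, and the median log2 change was -0.78. Ribonucleotide reductase makes deoxyribonucleotides, and both its subunits fell. Rrm1 had 147, 138 and 143 CPM in MiaTAM co-culture, against 332, 317 and 325 CPM alone, and its log2 change was -1.19 ± 0.039. Rrm2 averaged 10.4 ± 0.755 CPM in MiaTAM co-culture and 41.8 ± 0.507 CPM alone (-2 ± 0.076). Thymidine kinase, Tk1, had 24.8, 31.4 and 25.2 CPM in MiaTAM co-culture, against 118, 123 and 117 CPM alone. That is a fall of 4.4-fold, with no overlap between the groups. Shmt1, which moves a carbon unit from serine to folate, fell by 3.75-fold. The smallest falls of the list were those of Impdh2 (-0.32), Umps (-0.37) and Atic (-0.37), of purine and pyrimidine synthesis.

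Genes of G2 and mitosis fell furthest. Of 30 listed genes 29 were tested and all 29 fell, where 33.7% of all tested genes did. In 28 the fall was 2-fold or more, where 3.83% of all genes fell as far, and the median log2 change was -1.74. Top2a, the topoisomerase that untangles chromosomes before they part, had 155, 147 and 159 CPM in MiaTAM co-culture, against 621, 608 and 622 CPM alone. The MiaTAM libraries were close to each other and far below the cells alone, and the log2 change was -2.01 ± 0.041 (adjusted p = 3.48e-18). The proliferation marker Mki67 averaged 279 ± 16.2 CPM in MiaTAM co-culture and 1193 ± 53.4 CPM alone (-2.1 ± 0.051). The spindle motors Kif11 and Kif20a had log2 changes of -1.92 ± 0.042 and -1.75 ± 0.039. Cdk1, the kinase that starts mitosis, averaged 62.6 ± 2.36 CPM in MiaTAM co-culture and 168 ± 3.3 CPM alone, and the kinases Aurkb, Bub1 and Plk1 fell by 1.87, 1.75 and 1.45. The exception in size was the securin gene Pttg1, which averaged 73.5 ± 1.87 CPM in MiaTAM co-culture and 101 ± 5.19 CPM alone (-0.45).

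The promoters of 2 of these genes are shown because they carry the words that recur among the genes that fell. Both are the 250 bases before the start of the RefSeq transcript in GRCr8, read 5′ to 3′ on the strand of the gene, which is the minus strand for both. Mcm6 lies at chr13:42404353-42404602 and Top2a at chr10:84473094-84473343. Capitals mark an E2F word in both orientations, overlapping each other, and CCAAT boxes in Mcm6, and CCAAT boxes and a cell cycle homology region (CHR) in Top2a.
Mcm6: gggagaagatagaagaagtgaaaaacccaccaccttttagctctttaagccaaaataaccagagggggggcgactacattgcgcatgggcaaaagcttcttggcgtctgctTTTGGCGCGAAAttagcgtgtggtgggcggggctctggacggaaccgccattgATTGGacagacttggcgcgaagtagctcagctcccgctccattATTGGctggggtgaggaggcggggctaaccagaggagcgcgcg
Top2a: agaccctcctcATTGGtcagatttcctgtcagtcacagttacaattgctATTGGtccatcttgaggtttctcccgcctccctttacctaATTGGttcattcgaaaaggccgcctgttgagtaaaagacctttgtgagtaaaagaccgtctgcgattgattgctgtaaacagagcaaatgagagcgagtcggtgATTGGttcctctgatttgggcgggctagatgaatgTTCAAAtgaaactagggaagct
The overlapping E2F words of Mcm6 begin 139 and 135 bases before the start, and its CCAAT boxes 86 and 43 bases before it. In Top2a the 4 CCAAT boxes begin 239, 201, 161 and 57 bases before the start and the CHR 22 bases before it.

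E2F factors bind promoters of replication genes, and the CCAAT box and the CHR are known from promoters of mitotic genes. The words were searched on both strands of the 250 bases, E2F as TTTCCCGC or as 1 of 3 variants of it, namely TTTGGCGC along with TTTGCCGC along with TTTCGCGC, the CCAAT box as CCAAT and the CHR as TTTGAA. The CCAAT box lay in 31.4% of 379 promoters of genes that rose by 2-fold or more, in 55.5% of 283 promoters of genes that fell by as much, and in 35.9% of the promoters of all 8062 tested genes with a RefSeq entry. The CHR lay in 7.65% of the promoters of genes that rose, 26.1% of those that fell and 10.2% of all tested. An E2F word lay in 0.792% of those that rose, 8.48% of those that fell and 3.34% of all tested. In the replication list 23.3% of 30 promoters held an E2F word and 60% a CCAAT box, and in the mitosis list 82.6% of 23 promoters held a CCAAT box and 52.2% a CHR. The E-box CACGTG, a word bound by MYC among other factors, lay in 3.69% of promoters of genes that rose, 11.3% of those that fell and 8.26% of all tested. The AP-1 word TGANTCA ran the other way, with 8.71% of those that rose, 4.24% of those that fell and 4.43% of all tested. These shares describe letters in a window, and over all 24206 promoters in the RefSeq table they were 34.4% for the CCAAT box, 16.1% for the CHR, 1.83% for E2F, 5.86% for the E-box and 6.35% for AP-1.

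**Figure D3:**
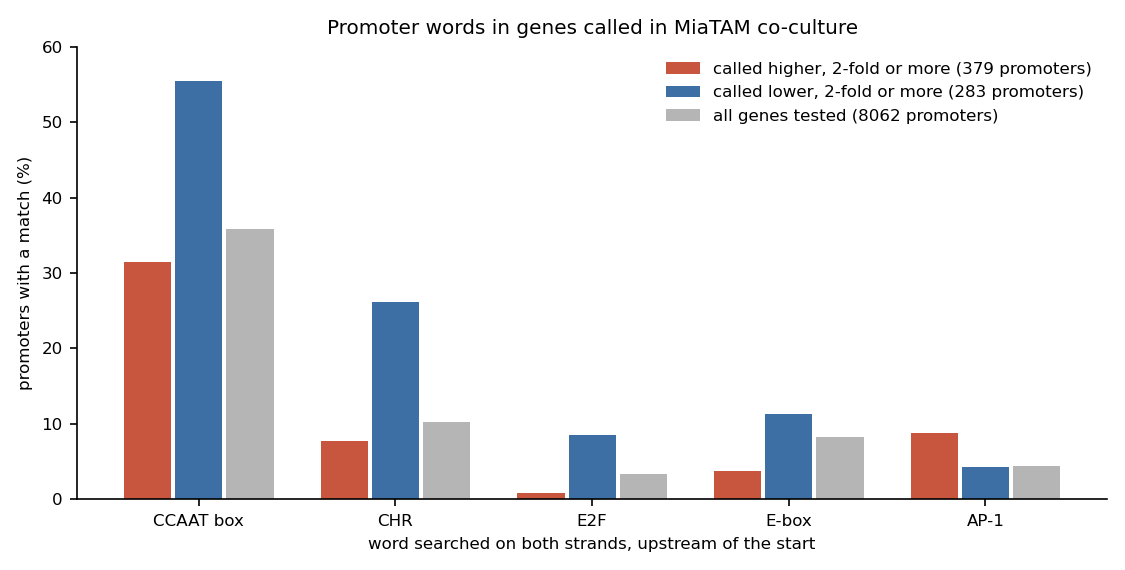
Share of promoters, in percent, with at least 1 match to each word on either strand in the 250 bases before the start, for 379 genes that rose by 2-fold or more (red), 283 that fell by 2-fold or more (blue) and all 8062 tested genes with a promoter (grey). The CCAAT box, CHR, E2F word and E-box were most frequent among genes that fell, and the AP-1 word among genes that rose.

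Regulators of the G1 phase were mixed, where 31.4% of all tested genes rose and 33.7% fell. Of 23 listed genes 19 were tested, 7 rose and 11 fell, with a median log2 change of -0.39. The E2F factors that drive S phase genes fell, E2f1 to 31.4 ± 1.6 CPM in MiaTAM co-culture, against 70 ± 2.54 CPM alone (-1.16 ± 0.065). E2f7 and E2f8, repressors of the same family, fell by 1.46 and 1.26, and the pocket protein Rbl1 averaged 29.3 ± 1.71 CPM in MiaTAM co-culture and 58.2 ± 2.79 CPM alone (-0.99). Cyclin E1, Ccne1, rose while cyclin E2 fell. Ccne1 had 17.1, 15.2 and 14.5 CPM in MiaTAM co-culture, against 8.52, 8.11 and 8.14 CPM alone, and Ccne2 averaged 11.8 ± 1.38 and 23 ± 2.66 CPM. The D cyclins Ccnd1 and Ccnd3 rose by 0.24 and 0.55 on the log2 scale, and their partners Cdk4 and Cdk6 fell by 0.36 and 0.66. Among brakes on the cycle, Rb1 and Rbl2 rose by 0.61 and 0.52, Cdkn1c by 0.87 and Cdkn1a by 0.29, Cdkn2c fell by 0.55, and Cdkn1b was not called (-0.051 ± 0.076, adjusted p = 0.577).

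Nucleolar genes that build ribosomes fell together. All 30 listed were tested and 29 fell, where 33.7% of all tested genes did, 4 by 2-fold or more, with a median log2 change of -0.60. The polymerase I subunit Polr1c was not called (0.0043 ± 0.066). Nucleolin, Ncl, had 372, 348 and 388 CPM in MiaTAM co-culture, against 755, 733 and 695 CPM alone. The groups did not overlap, and its log2 change was -0.98 ± 0.05. Nop56, a core protein of the particles that methylate ribosomal RNA, averaged 36.3 ± 1.6 CPM in MiaTAM co-culture and 73.9 ± 2.88 CPM alone (-1.03 ± 0.054). Utp20, of the small subunit processome, averaged 26.8 ± 0.697 and 63.2 ± 1.27 CPM in MiaTAM co-culture and alone, the largest fall of the list (-1.24). The nucleolar chaperone Npm1 fell by 0.71.

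MYC is known to drive many nucleolar and polyamine genes, and its part in these changes was not tested. Myc itself was not called. It had 67.9, 78.7 and 67.5 CPM in MiaTAM co-culture, against 74.7, 77.6 and 80.4 CPM alone, and the libraries of the groups overlapped (-0.12 ± 0.062, adjusted p = 0.0892). Without MiaTAM library 2, its highest MiaTAM value, the change was called (-0.20, adjusted p = 0.00693). Of the 12 listed genes of the MYC network 10 were tested, 4 rose and 2 fell, where 31.4% of all tested genes rose and 33.7% fell. Their median was 0.072. The antagonist Mxd4 had 35.6, 16.9 and 37.6 CPM in MiaTAM co-culture, against 6.14, 12.5 and 11.8 CPM alone (1.57 ± 0.22), Mycl rose by 1.19, Mlx by 0.15, and Mga, a repressor that pairs with MAX, fell by 0.50. Of 10 polyamine genes 3 rose and 2 fell, with a median of 0.027. Odc1, the rate-limiting enzyme of polyamine synthesis, averaged 183 ± 5.36 CPM in MiaTAM co-culture and 291 ± 4.18 CPM alone (-0.67 ± 0.038). Of the genes that act against polyamines, Sat1, which acetylates them, rose by 0.42, the oxidase Smox by 0.44 and the antizyme Oaz2 by 0.47, while the antizyme Oaz1 and the oxidase Paox were not called.

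Genes of the ATF4 programme, which supplies amino acids under stress, were mostly lower. Of 39 listed 37 were tested, 30 fell, where 33.7% of all tested genes did, and 3 rose, 7 fell by 2-fold or more, and the median log2 change was -0.51. Atf4 itself averaged 238 ± 9.07 CPM in MiaTAM co-culture and 401 ± 1.23 CPM alone (-0.75 ± 0.041). Psat1, of serine synthesis, had 109.5, 108 and 115 CPM in MiaTAM co-culture, against 266, 287 and 279 CPM alone. The groups did not overlap, and its log2 change was -1.33 ± 0.041. Chac1, which degrades glutathione, averaged 70.7 ± 1.02 CPM in MiaTAM co-culture and 147 ± 2.1 CPM alone (-1.06), and the tRNA synthetase Eprs 400.0 ± 18.4 and 699 ± 8.08 CPM (-0.80). Amino acid carriers fell with Slc7a11, among them Slc7a5 (-1.02) and its partner Slc3a2 (-0.80), and all 8 listed tRNA synthetase genes fell, by 0.28 to 0.80. The 3 that rose were Cebpb (0.64), Pycr1 of proline synthesis (0.49) and the stress factor Ddit3 (0.37).

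Of the 27 proteasome genes, all tested, 23 fell and 1 rose, where 33.7% of all tested genes fell and 31.4% rose. None changed by 2-fold, and the median was -0.32. Psmc5, an ATPase of the regulatory cap, had 57.6, 54.9 and 56.6 CPM in MiaTAM co-culture, against 97.4, 94.5 and 94.2 CPM alone (-0.76 ± 0.058), and the core subunits Psma4, Psma5 and Psma7 fell by 0.76, 0.69 and 0.58. The gene that rose was Psmb7 (0.11 ± 0.048). Heat shock chaperones followed in part, with 11 of 20 tested genes (24 listed) lower and 4 higher and a median of -0.17. The mitochondrial chaperones Hspd1 and Hspa9 fell by 0.91 and 0.69 and the chaperonin subunit Tcp1 by 0.56. The small heat shock gene Hspb1 averaged 145 ± 8.87 CPM in MiaTAM co-culture and 87.9 ± 1.01 CPM alone (0.72 ± 0.051).

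Chaperones of the endoplasmic reticulum (ER) moved up by modest amounts. Of 29 listed genes 28 were tested, 16 rose and 4 fell, where 31.4% of all tested genes rose and 33.7% fell, none by 2-fold, with a median of 0.20. Hspa5, the master chaperone BiP, had 1663, 1462 and 1626 CPM in MiaTAM co-culture, against 1108, 1075 and 1133 CPM alone. All MiaTAM values were the higher ones, and the log2 change was 0.52 ± 0.052 (adjusted p = 2.57e-08). P4hb, a disulfide isomerase, averaged 2121 ± 56.2 CPM in MiaTAM co-culture and 1266 ± 38.8 CPM alone (0.74 ± 0.04), and Hyou1 rose by 0.49. Hsp90b1 fell by 0.18, Creld2 by 0.32 and the stress sensor Atf6 by 0.28. The Hspa5 promoter is shown for its ER stress response element (ERSE), the word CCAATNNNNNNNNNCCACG. It is the 250 bases before the RefSeq start on the plus strand of GRCr8, chr3:38452766-38453015, with capitals on the CCAAT boxes and on the whole ERSE, which begins 43 bases before the start.
Hspa5: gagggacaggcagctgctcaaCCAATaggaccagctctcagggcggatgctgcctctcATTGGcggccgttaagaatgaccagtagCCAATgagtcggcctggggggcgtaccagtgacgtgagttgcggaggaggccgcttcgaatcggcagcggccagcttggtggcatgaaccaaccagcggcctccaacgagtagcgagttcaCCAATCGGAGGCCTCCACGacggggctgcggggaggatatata
An ERSE lay in 36.8% of 19 promoters of the ER list, 0.149% of promoters of all tested genes and 0.0744% of all promoters in the table. A CCAAT box lay in 94.7% of the 19.

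The rise of the ER genes in MiaTAM co-culture stayed below their level in MDM co-culture. In MiaTAM co-culture 23 of the 28 were lower than in MDM co-culture, where 21.1% of all tested genes were, and 1 was higher, with a median difference of -0.41. Hspa5 averaged 1584 ± 107 CPM in MiaTAM, 1939.8 ± 89.4 CPM in BxTAM and 4354 ± 264 CPM in MDM co-culture, against 1105 ± 29 CPM alone. Its difference from MDM co-culture was -1.46 ± 0.053 (adjusted p = 6.13e-14). The stress factor Ddit3 differed from MDM co-culture by -1.45 on the log2 scale.

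Lysosomal genes were higher. Of 30 listed 29 were tested, 22 rose, where 31.4% of all tested genes did, 1 fell and 2 rose by 2-fold or more, with a median log2 change of 0.35. Cathepsin D, Ctsd, had 3568, 3637 and 3647 CPM in MiaTAM co-culture, against 1325, 1335 and 1296 CPM alone, with a log2 change of 1.46 ± 0.042 (adjusted p = 1.66e-16). Every MiaTAM value exceeded every value alone by more than 2-fold. The sialidase Neu1 rose by 1.02, Ctsb by 0.76, the glucosidase Gaa by 0.79 and progranulin, Grn, by 0.70, and the channel gene Mcoln1 fell by 0.31. Macrophages are rich in lysosomes; the macrophage markers summed to 65.1 to 67.8 CPM in MiaTAM co-culture and 28.2 to 31.4 CPM alone, and their part in these rises was not tested. Of 12 iron genes 5 rose and 3 fell, with a median of 0.060. Ferritin light chain, Ftl1, an iron store, had 891, 993 and 916 CPM in MiaTAM co-culture, against 351, 348 and 348 CPM alone (1.42 ± 0.052), the reductase Steap3 rose by 0.80, the importer Slc11a2 by 0.37, and ceruloplasmin, Cp, fell by 0.47. The transferrin receptor Tfrc averaged 264 ± 24.7 CPM in MiaTAM co-culture and 292 ± 8.32 CPM alone (-0.15).

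Lipid genes leaned higher, where 31.4% of all tested genes rose and 33.7% fell. Of 25 cholesterol genes 24 were tested, 13 rose and 2 fell, none by 2-fold, with a median of 0.19. The synthesis gene Msmo1 had 823, 748 and 804 CPM in MiaTAM co-culture, against 454, 429 and 466 CPM alone, and rose by 0.82 ± 0.044 on the log2 scale. The sterol sensor partner Insig1 rose by 0.65, while Idi1 fell by 0.37. Of 27 genes of fatty acids and the liver X receptors (LXR), 26 were tested, 18 rose and 2 fell, with a median of 0.24. Fatty acid synthase, Fasn, averaged 931 ± 22.4 CPM in MiaTAM co-culture and 553 ± 22.4 CPM alone (0.75 ± 0.047), the desaturase Scd2 rose by 0.76 and the sterol exporter Abcg1 by 0.53. Acacb, which controls entry of fatty acids into mitochondria, had 12, 10.4 and 11.4 CPM in MiaTAM co-culture, against 2.61, 2.8 and 2.66 CPM alone (2.06 ± 0.15).

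Energy genes split, where 31.4% of all tested genes rose and 33.7% fell. Of 37 genes of glycolysis and HIF, the hypoxia factor, 33 were tested, 14 rose and 15 fell, with a median of 0.068. Aldoc, an aldolase, had 225, 245 and 235 CPM in MiaTAM co-culture, against 111, 119 and 112 CPM alone (1.04 ± 0.042), and Eno2, Car9 and P4ha2 rose by 0.88, 0.80 and 0.77. Ankrd37, a hypoxia target, averaged 1.5 ± 0.226 CPM in MiaTAM co-culture and 6.16 ± 1.33 CPM alone (-2.04 ± 0.18). Of 25 nuclear genes of oxidative phosphorylation, 24 were tested, 10 rose and 3 fell, with a median of 0.10 and the largest change 0.37 (Sdha of complex II). Of 24 genes of the antioxidant factor NRF2, 22 were tested, 9 rose and 8 fell, with a median of 0.044. Gstp1, a glutathione transferase, averaged 699 ± 41.7 CPM in MiaTAM co-culture and 353 ± 4.91 CPM alone (0.99 ± 0.046), malic enzyme, Me1, rose by 0.70, the NRF2 gene Nfe2l2 fell by 0.55 and the metallothionein Mt2A by 0.73.

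**Figure D4:**
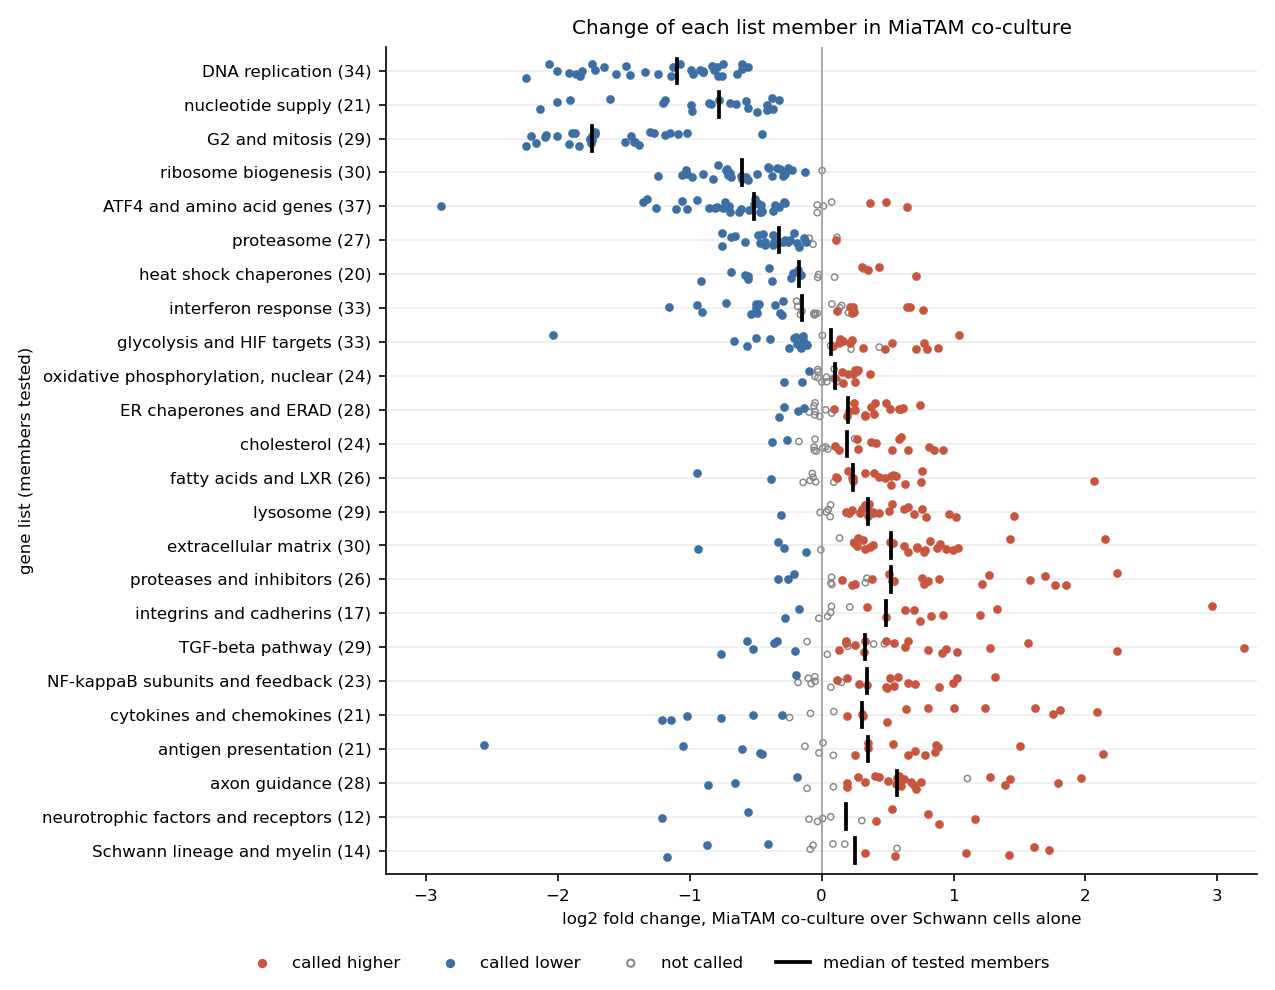
Log2 fold change of MiaTAM co-culture over Schwann cells alone for each tested member of 24 gene lists, with the number tested after each name; filled red and blue points were called higher and lower, open points were not called, and black bars are medians. The mitosis list has its median at -1.74 and the axon guidance list at 0.57; Pmepa1 in the TGF-β list lies beyond the axis and is drawn at its edge.

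Genes of the transforming growth factor β (TGF-β) pathway were mostly higher. Of 34 listed 29 were tested, 18 rose and 6 fell, where 31.4% of all tested genes rose and 33.7% fell, 5 rose by 2-fold or more, where 5.11% of all did, and the median was 0.33. Among ligands, Tgfb1 averaged 131 ± 9.33 CPM in MiaTAM co-culture and 93.2 ± 3.26 CPM alone (0.49 ± 0.05), Tgfb2 rose by 1.02, the activin gene Inhba by 0.91 and Gdf15 by 1.57. The receptor Tgfbr2 fell by 0.36 and the signal transducer Smad2 by 0.76, while Smad3 rose by 0.32. The feedback inhibitor Smad7 had 38.1, 38.8 and 41.1 CPM in MiaTAM co-culture, against 21.1, 18.7 and 21.6 CPM alone (0.94 ± 0.065), and Skil rose by 0.81 beside Pmepa1, described above. The latent binding proteins moved apart, with Ltbp2 higher by 1.28 and Ltbp1 lower by 0.52. Targets of bone morphogenetic protein signalling fell in part, Id1 by 0.34 and Id3 by 0.56, while Id2 rose by 0.33.

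Matrix genes rose broadly. Of 39 listed genes 30 were tested, 23 rose, where 31.4% of all tested genes did, and 4 fell, with a median of 0.53. Col1a1, a chain of the fibrillar collagen I, had 73.6, 82 and 69.1 CPM in MiaTAM co-culture, against 17.6, 16.7 and 16.4 CPM alone (2.15 ± 0.068). Its partner chain Col1a2 had no count in either group. Col18a1, a basement membrane collagen, averaged 442 ± 12 CPM in MiaTAM co-culture and 164 ± 5.3 CPM alone (1.43 ± 0.042). Fibronectin, Fn1, had 906, 914 and 919 CPM in MiaTAM co-culture, against 505, 507 and 483 CPM alone, with the groups apart (0.87 ± 0.037). Col6a1 and Col6a2 rose by 1.00 and 1.04 and the laminin chains Lamb1 and Lama5 by 0.78 and 0.90. The 4 that fell were Col5a2 (-0.94), Loxl2 (-0.33), tenascin C, Tnc (-0.29), and Lamb2 (-0.12). Fibroblast markers summed to between 493 and 528 CPM in MiaTAM co-culture and between 389 and 399.7 CPM alone; 5 of the 10, among them Col1a2, Dcn and Lum, were at 0 in both groups, and 3 of 4 tested were higher. The third, Pdgfrb, lost its call in 5 of the alternatives, with limma on log2(FPKM + 1) and without MiaTAM library 1 or 2 or library 1 or 2 of cells alone (adjusted p of 0.0505 to 0.132), which leaves 2 of 4.

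The laminin of hemidesmosomes anchors cells to their matrix, and its chains did not all move together. Lamb3 rose, as described above, while the alpha chain Lama3 averaged 43.8 ± 1.65 CPM in MiaTAM co-culture and 63.2 ± 4.03 CPM alone (-0.53 ± 0.065). Of 9 genes in the list 8 were tested, 4 rose and 2 fell, with a median of 0.23, and the integrin Itgb4, the receptor for this laminin, rose by 0.49. Of 26 listed integrins and cadherins 17 were tested, 10 rose and 2 fell, where 31.4% of all tested genes rose and 33.7% fell. Their median was 0.49. The fibronectin receptor subunit Itga5 rose by 0.75, Itga7 by 0.63, Itgb5 by 0.70 and the cadherin Cdh6 by 0.83, and Cdh2 and Cdh3 fell by 0.28 and 0.17. Epithelial markers summed to between 44.6 and 46.7 CPM in MiaTAM co-culture and between 37.8 and 39.4 CPM alone; of the 5 tested of 12, Cldn4 and Krt8 were higher, Krt8 not without MiaTAM library 1 (adjusted p = 0.0889) or library 3 of cells alone (adjusted p = 0.0742), and Epcam, Krt19, Cldn3 and Cldn7 had no count in either group.

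Of 31 proteases and inhibitors 26 were tested, 18 rose and 3 fell, where 31.4% of all tested genes rose and 33.7% fell. The rise was 2-fold or more in 7, where 5.11% of all genes rose as far, and the median was 0.52. Adamts4, which cleaves the proteoglycans of the matrix, had 89.1, 83.2 and 83.9 CPM in MiaTAM co-culture, against 29.2, 30 and 26.3 CPM alone (1.58 ± 0.053). The plasminogen activators rose together, Plat to 25.8 ± 2.7 CPM in MiaTAM co-culture, against 8.01 ± 0.605 CPM alone (1.69 ± 0.096), and Plau to 77.6 ± 1.98 against 41.8 ± 2.13 CPM (0.89 ± 0.048). Plaur, the receptor gene for Plau, rose by 0.16. Among matrix metalloproteinases, Mmp9 averaged 6.67 ± 0.631 CPM in MiaTAM co-culture and 1.81 ± 0.845 CPM alone (1.86 ± 0.19), Mmp10 rose by 1.22 and Mmp13 by 0.54. The inhibitor Timp1 had 777, 716 and 654 CPM in MiaTAM co-culture, against 418, 434 and 401 CPM alone (0.78 ± 0.052). The sheddases Adam10 and Adam17 fell by 0.26 and 0.33.

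Cytoskeletal and Hippo pathway genes gave no common direction, where 31.4% of all tested genes rose and 33.7% fell. Of 25 contractile actin genes 23 were tested, 8 rose and 10 fell, with a median of -0.081. The cytoskeletal genes Actb, Flna, Tpm3 and Tpm4 fell by 0.60, 0.82, 0.50 and 0.55. Of the genes best known from smooth muscle, those that rose included Acta2, which averaged 1 ± 0.346 CPM in MiaTAM co-culture and 0.175 ± 0.113 CPM alone, and Cnn1 (1.97). Actin genes are close paralogs, so reads could be shared between them. Of 18 genes of YAP and TEAD, the effectors of the Hippo pathway, 4 rose and 8 fell, with a median of -0.074. Cyr61, a YAP target, had 45.4, 46.3 and 46 CPM in MiaTAM co-culture, against 91.2, 94.6 and 92 CPM alone (-1.01 ± 0.057), and Ctgf, Tead1, Axl and Crim1 fell by 0.79, 0.56, 0.41 and 0.44.

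Cytokines and chemokines moved in both directions, where 31.4% of all tested genes rose and 33.7% fell. Of 29 listed genes 21 were tested, 12 rose and 6 fell, with a median of 0.30. IL-33, an alarmin of the IL-1 family, is encoded by Il33 (chr1:248132090-248147029), which had 311, 292 and 325 CPM in MiaTAM co-culture, against 218, 213 and 228 CPM alone. All 3 MiaTAM libraries were higher than all 3 of cells alone, and the log2 change was 0.50 ± 0.045 (adjusted p = 6.37e-09). Il1rn, the IL-1 receptor antagonist, had 45.9, 46 and 51.6 CPM in MiaTAM co-culture, against 15.1, 15.6 and 16 CPM alone, with a log2 change of 1.62 ± 0.089 (adjusted p = 2.55e-12). Each MiaTAM value was close to 3 times the values alone. Cxcl12, a chemokine that draws CXCR4-bearing cells, had 139, 140.4 and 135 CPM in MiaTAM co-culture, against 234, 236 and 234 CPM alone, and it fell by 0.76 (adjusted p = 6.6e-13). The interferon-induced Cxcl10 averaged 18.9 ± 0.352 CPM in MiaTAM co-culture and 38.2 ± 1.39 CPM alone (-1.02), Cxcl1 and Ccl2 fell by 0.52 and 0.30, and the neurotrophic cytokine Clcf1 fell by 1.21. Among the rises were Lif (0.81), Il11 (1.24) and, near 1 CPM, Il6, which averaged 1.02 ± 0.179 CPM in MiaTAM co-culture and 0.28 ± 0.196 CPM alone. Csf2 averaged 2.57 ± 0.85 CPM in MiaTAM co-culture and 0.746 ± 0.121 CPM alone (1.76). Cxcl1, Cxcl2, Cxcl3 and Cxcl6 are near-copies, so their counts are uncertain, and Il1b had no count in either group.

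NF-κB is the transcription factor behind many of these cytokines. Of 24 genes for its subunits, inhibitors and targets 23 were tested, 15 rose, where 31.4% of all tested genes did, and 1 fell, with a median of 0.34. Tnip1, an inhibitor, averaged 251 ± 12.9 CPM in MiaTAM co-culture and 175 ± 3.56 CPM alone (0.52 ± 0.041), and Nfkbiz and Nfkbia rose by 0.89 and 0.34. Ptgs2, the inducible cyclooxygenase, had 21.9, 22 and 25.2 CPM in MiaTAM co-culture, against 11.6, 10.6 and 12.5 CPM alone (1.00 ± 0.09), and the adhesion gene Icam1 rose by 0.50. Of the subunits, Relb, Nfkb2 and Rela rose by 0.71, 0.29 and 0.19, and Nfkb1 and Rel were not called. Tnfaip3, a feedback inhibitor, fell by 0.19. The Il1rn promoter is shown for its NF-κB word, GGGNNTTTCC. It is the 250 bases before the RefSeq start on the plus strand of GRCr8, chr3:27520072-27520321, and capitals mark the word, which begins 129 bases before the start.
Il1rn: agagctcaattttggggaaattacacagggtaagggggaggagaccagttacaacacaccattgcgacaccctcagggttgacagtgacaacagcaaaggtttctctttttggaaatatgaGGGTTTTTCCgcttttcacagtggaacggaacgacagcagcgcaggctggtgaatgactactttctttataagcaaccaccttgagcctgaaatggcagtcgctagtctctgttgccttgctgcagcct
The word lay in 30.8% of 13 promoters of the cytokine list, 25% of 20 of the NF-κB list, 1.5% of promoters of all tested genes and 1.27% of all promoters in the table. Words for SMAD, sterol response, TEAD and amino acid response were searched as well. SMAD words lay in 0% of 22 TGF-β promoters and 13.1% of all tested, and sterol words in 0% of 17 cholesterol promoters and 1.05%. TEAD words lay in 44.4% of 9 YAP and TEAD promoters and 9.8% of all tested, and amino acid words in 20% of 25 ATF4 promoters and 1.56%.

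Interferon genes were mixed, where 31.4% of all tested genes rose and 33.7% fell. Of 35 listed 33 were tested, 8 rose and 13 fell, with a median of -0.15. Gbp2, an interferon-induced GTPase, had 85.5, 82 and 83.5 CPM in MiaTAM co-culture, against 187, 188 and 184 CPM alone (-1.16 ± 0.046), and Parp14 fell by 0.49. Oasl and the RNA sensor Dhx58 rose by 0.67 and 0.77. Of 22 genes of antigen presentation 21 were tested, 12 rose and 5 fell, with a median of 0.35. The MHC class II genes were low but higher in MiaTAM co-culture. RT1-Bb had 4.48, 4.22 and 4.28 CPM in MiaTAM co-culture, against 0.966, 1.12 and 0.852 CPM alone (2.13 ± 0.17), RT1-Db1 averaged 19.6 ± 0.872 and 10.6 ± 0.567 CPM in MiaTAM co-culture and alone, and the invariant chain Cd74 rose by 1.5. Erap1, which trims peptides for MHC class I, fell by 1.05 and the immunoproteasome subunits Psmb8 and Psmb10 by 0.61 and 2.56, while B2m and Tapbp rose by 0.35 and 0.65. RT1 genes are a family of near-copies, so their counts are uncertain. Macrophages also express MHC class II. Of 26 macrophage markers 7 were tested and 5 were higher, among them Itgax (41.4 ± 1.41 CPM in MiaTAM co-culture and 17.2 ± 1 CPM alone), Csf1r (9.24 ± 1.24 and 3.34 ± 0.202 CPM) and Cd68 (1.87 ± 0.273 and 0.416 ± 0.187 CPM), and their part in these rises was not tested. Lymphocyte markers summed to between 1.83 and 2.44 CPM in MiaTAM co-culture and between 0.909 and 1.22 CPM alone, and Lck, the 1 tested of 14, was not called.

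Genes of the Schwann lineage and myelin were sparse. Of 28 listed 14 were tested, 6 rose and 3 fell, where 31.4% of all tested genes rose and 33.7% fell. The rise was 2-fold or more in 4, where 5.11% of all genes rose as far, and the median was 0.25. Dhh, the ligand by which Schwann cells build the nerve sheath, had 21.4, 20.8 and 19.9 CPM in MiaTAM co-culture, against 7.95, 8.11 and 7.13 CPM alone (1.42 ± 0.078). The adhesion gene Cadm4, which links Schwann cells to axons, averaged 29.3 ± 1.6 CPM in MiaTAM co-culture and 9.57 ± 0.942 CPM alone (1.61 ± 0.095), and Erbb3, a neuregulin receptor, 15.2 ± 1.25 and 7.13 ± 0.871 CPM (1.1 ± 0.12). Ngfr, the low-affinity neurotrophin receptor of immature and repair Schwann cells, had 41, 13 and 24 counts in MiaTAM co-culture, against 5, 6 and 13 alone, so that MiaTAM library 2 and the highest library of cells alone had the same number. In CPM they were 2.14, 0.783 and 1.3 and 0.284, 0.306 and 0.692, a log2 change of 1.73 ± 0.42 (adjusted p = 0.00125). Gfap, a glial filament, went the other way, with 1.04, 1.63 and 1.14 CPM in MiaTAM co-culture, against 2.9, 2.65 and 2.98 CPM alone (-1.17 ± 0.22). Prx, a gene of myelin, fell by 0.40, and Mbp and Mag had no count.

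Of 25 neurotrophic factors and receptors 12 were tested, 5 rose and 2 fell, where 31.4% of all tested genes rose and 33.7% fell. Their median was 0.19. Bdnf, Lif and the sorting receptor Sort1 rose by 0.53, 0.81 and 0.89, Igf1r fell by 0.56 and Gdnf was not called (-0.031 ± 0.11). Axon guidance genes rose more widely. Of 34 listed 28 were tested, 22 rose, where 31.4% of all tested genes did, and 3 fell, with the highest median of the pathway lists, 0.57. Sema7a, a membrane semaphorin, had 19.8, 23.5 and 22.8 CPM in MiaTAM co-culture, against 8.18, 8.26 and 8.09 CPM alone (1.43 ± 0.091), and the receptors Plxna2 and Unc5b rose by 0.58 and 0.60. The secreted semaphorin Sema3c averaged 464 ± 31.3 CPM in MiaTAM co-culture and 846 ± 16.8 CPM alone (-0.86 ± 0.044), and the receptors Robo1 and Nrp2 fell by 0.65 and 0.18.

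Receptor tyrosine kinase genes and the feedback genes of ERK, a kinase downstream of them, were more often higher than lower, where 31.4% of all tested genes were higher and 33.7% lower. Of 29 ligands and receptors of the ErbB, FGF and related families 19 were tested, 11 rose and 2 fell, with a median of 0.31. Fgfr1 had 3.96, 4.28 and 4.06 CPM in MiaTAM co-culture, against 1.14, 1.38 and 1.01 CPM alone, with no overlap (1.79 ± 0.17, adjusted p = 1.58e-08). Its ligand Fgf2 had 3.96, 3.01 and 4.17 CPM in MiaTAM co-culture, against 3.18, 3.42 and 2.87 CPM alone. The groups overlapped through MiaTAM library 2 and the change was not called (0.24 ± 0.15, adjusted p = 0.175); without that library it was (0.36, adjusted p = 0.0497). Pdgfa and Pdgfc rose by 0.54 and 0.52, and Ereg and Met fell by 0.69 and 0.38. Of 17 ERK feedback genes 16 were tested, 10 rose and 4 fell, with a median of 0.29. Ier3 averaged 659 ± 7.42 CPM in MiaTAM co-culture and 339 ± 9.95 CPM alone (0.96 ± 0.046), Phlda1 rose by 0.79, and the phosphatases Dusp5 and Dusp6 by 0.60 and 0.32. Of 18 immediate early genes 17 were tested, 8 rose and 2 fell, with a median of 0.31. Jund averaged 91.5 ± 8.13 CPM in MiaTAM co-culture and 42.2 ± 2.53 CPM alone (1.12 ± 0.063), Jun and Ier5 rose by 0.35 and 0.68, Fosl1 fell by 0.68 and Egr1 was not called (-0.09 ± 0.042).

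Targets of p53 gave little, where 31.4% of all tested genes rose and 33.7% fell. Of 24 listed 21 were tested, 10 rose and 4 fell, with a median of 0.019. Plk3 had 352, 362 and 343 CPM in MiaTAM co-culture, against 166, 166 and 159 CPM alone (1.11 ± 0.048), Xpc and Cdkn1a rose by 0.45 and 0.29, and Mdm2 fell by 0.23. Of 16 retinoid genes 9 were tested and 8 rose, with a median of 0.48. The retinaldehyde reductase Dhrs3 averaged 3.51 ± 0.857 CPM in MiaTAM co-culture and 1.61 ± 0.0561 CPM alone (1.12 ± 0.19), and the receptors Rarg, Rxrb and Rara rose by 0.45, 0.49 and 0.21.

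MiaTAM co-culture was also tested directly against the other co-cultures, in the same fit. Against MDM co-culture 5062 genes were called (41%), 2453 higher (19.8%) and 2609 lower (21.1%), of which 108 and 89 differed by 2-fold or more. Against BxTAM co-culture 2997 were called (24.2%), 1356 higher (11%) and 1641 lower (13.3%), of which 28 and 5 differed by 2-fold or more. The count against BxTAM fell to 1933 without MiaTAM library 2, to 1978 without BxTAM library 2 and to 1976 without BxTAM library 3. The comparisons share the MiaTAM libraries, and each comparison with cells alone shares those cells, so agreement between them is no separate evidence.

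Mitosis genes were lower than in MDM co-culture, and replication genes were more often higher than lower. Of all tested genes 19.8% were higher and 21.1% lower than in MDM co-culture. In the mitosis list all 29 genes were lower in MiaTAM than in MDM co-culture, with a median difference of -0.92. Top2a averaged 154 ± 5.99 CPM in MiaTAM, 159 ± 4.65 CPM in BxTAM and 325 ± 11.2 CPM in MDM co-culture, against 617 ± 7.78 CPM alone, and it differed from MDM by -1.08 ± 0.041 (adjusted p = 9.42e-14). In the replication list 15 of 34 were higher in MiaTAM than in MDM co-culture, 4 lower, among them Mcm10 (-0.24) and Pola1 (-0.13), and 15 were not called, with a median of 0.14. Mcm6 averaged 107 ± 2.5 CPM in MiaTAM, 103 ± 2.81 CPM in BxTAM and 65.1 ± 2.63 CPM in MDM co-culture, against 253 ± 2.76 CPM alone, and it differed from MDM by 0.71 ± 0.042. Ribosome biogenesis genes were also higher than in MDM co-culture, 21 of 30, with 4 lower and a median of 0.27, as were 20 of 37 ATF4 genes with 7 lower (0.21) and 19 of 27 proteasome genes with 1 lower (0.20). Slc7a11 averaged 3.59 ± 0.21 CPM in MiaTAM, 4.47 ± 0.436 CPM in BxTAM and 2.14 ± 0.342 CPM in MDM co-culture, against 26.6 ± 0.926 CPM alone. Against BxTAM co-culture, where 11% of all tested genes were higher and 13.3% lower, the median differences were 0.096 for replication, 0.026 for mitosis and 0.038 for ribosome biogenesis. Of the ATF4 genes 2 were higher than in BxTAM co-culture and 13 of 37 lower (-0.067), and of the proteasome genes 9 of 27 were higher and 1 lower (0.10).

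Cytokine and NF-κB genes stood above MDM co-culture, 12 of 21 and 16 of 23 higher and 2 and 3 lower, where 19.8% of all tested genes were higher and 21.1% lower, with median differences of 0.80 and 0.37. Against BxTAM co-culture 11% of all tested genes were higher and 13.3% lower. There 3 of the 21 cytokine genes were higher and 8 lower (-0.15), and 2 of the 23 NF-κB genes higher and 3 lower (0.024). Il33 averaged 309 ± 16.6 CPM in MiaTAM, 341 ± 17.1 CPM in BxTAM and 111 ± 1.99 CPM in MDM co-culture, against 219.5 ± 7.6 CPM alone. MiaTAM exceeded MDM by 1.48 ± 0.047 (adjusted p = 6.63e-15) and lay below BxTAM by a small called difference, -0.14 ± 0.045 (adjusted p = 0.0286). Il10 averaged 8.66 ± 1.31 CPM in MiaTAM, 10.6 ± 1.54 CPM in BxTAM and 1.8 ± 0.377 CPM in MDM co-culture, against 10.3 ± 0.687 CPM alone, where MiaTAM and alone did not differ by the test (-0.24 ± 0.12, adjusted p = 0.0914). Cxcl12 averaged 138 ± 2.85 CPM in MiaTAM, 221 ± 4.64 CPM in BxTAM and 79.1 ± 3.63 CPM in MDM co-culture, against 234 ± 1.34 CPM alone, so that MiaTAM lay between BxTAM and MDM, with differences of -0.68 ± 0.039 from BxTAM and 0.80 ± 0.041 from MDM. Beside the BxTAM shares of 11% higher and 13.3% lower, 14 of 24 cholesterol genes were lower and 1 higher, with a median difference of -0.20. Of 33 interferon genes 11 were lower than in BxTAM co-culture and 1 higher (-0.14). Oxidative phosphorylation genes were higher than in BxTAM co-culture in 12 of 24 with 0 lower, by a median of 0.14. Of the glycolysis and HIF list 24 of 33 were lower than in MDM co-culture and 3 higher (-0.25).

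**Figure D5:**
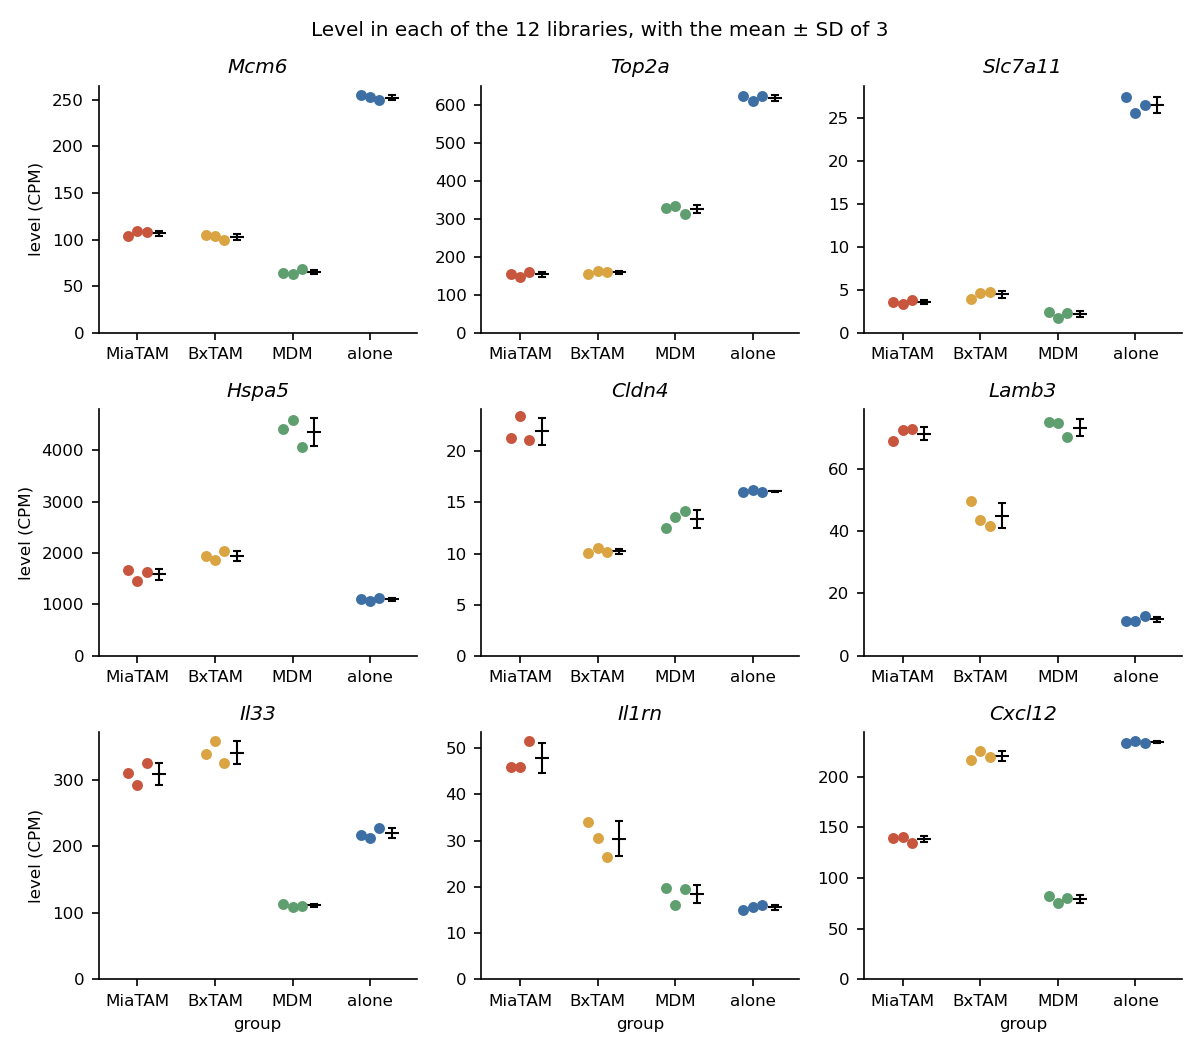
Level in CPM of 9 genes in each of the 12 libraries, in the order MiaTAM, BxTAM and MDM co-culture and cells alone, with a point for each library and the mean and SD of 3 beside them. Mcm6 and Top2a were lower in every co-culture than alone, Hspa5 was highest in MDM co-culture, Il1rn and Cldn4 were highest in MiaTAM co-culture, and Cxcl12 in MiaTAM lay between BxTAM and MDM co-culture.

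Some genes lay beyond both other co-cultures, changed against cells alone and in the same direction against MDM and BxTAM. The 8 that stood highest, ranked by the smaller of the 2 differences, were Stac2, Cldn4, Il1rn, Rdh5, Mmp10, Atp2b4, Ptpn6 and Wnt4. Il1rn averaged 47.8 ± 3.27 CPM in MiaTAM, 30.4 ± 3.79 CPM in BxTAM and 18.4 ± 1.97 CPM in MDM co-culture, against 15.5 ± 0.482 CPM alone, with differences of 0.65 ± 0.083 from BxTAM and 1.38 ± 0.087 from MDM. Cldn4, a claudin of tight junctions, had 21.3, 23.4 and 21.1 CPM in MiaTAM, 10, 10.5 and 10.2 CPM in BxTAM and 12.5, 13.6 and 14.1 CPM in MDM co-culture, against 16, 16.2 and 16 CPM alone. It was higher in MiaTAM co-culture than alone and lower in the other co-cultures than alone, and its difference from BxTAM was 1.1 ± 0.076 (adjusted p = 1.7e-08). Rdh5, a retinol dehydrogenase, rose by 1.71 ± 0.11 against cells alone and differed from BxTAM by 0.72 and from MDM by 0.63. Atp2b4, a calcium pump of the plasma membrane, rose by 1.6 ± 0.16 and differed by 0.63 and 0.60 from BxTAM and MDM. Wnt4, a signalling ligand, had 13.4, 13.5 and 14.3 CPM in MiaTAM co-culture, against 9.94, 8.57 and 8.52 CPM alone, and differed by 0.57 from BxTAM and 1.02 from MDM. Ptpn6, a phosphatase best known from blood cells, averaged 5.49 ± 1.23 CPM in MiaTAM co-culture and 3.52 ± 0.474 CPM alone (0.63 ± 0.16).

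The 8 that stood lowest included Cep290, Ankrd37, Hmgn5, Smc4, Kif20b, Ccdc18 and Casc5. Smc4, a core subunit of condensin, had 187, 135 and 162 CPM in MiaTAM co-culture, against 594, 557 and 618 CPM alone, and averaged 271 ± 18.2 CPM in BxTAM and 334 ± 34.7 CPM in MDM co-culture. Its differences were -0.75 ± 0.086 from BxTAM and -1.04 ± 0.085 from MDM, and MiaTAM library 2 was the lowest of the 12. Cep290, a protein of the ciliary gate, had 21.2, 14 and 17.7 CPM in MiaTAM co-culture, against 46.1, 49.6 and 49.4 CPM alone, and again MiaTAM library 2 was lowest; it differed by -1.05 from BxTAM and -0.93 from MDM. Kif20b differed by -0.69 from BxTAM and -1.44 from MDM, and the kinetochore scaffold Casc5 by -0.59 and -0.86. Hmgn5, a nucleosome-binding protein, averaged 2.78 ± 0.473 CPM in MiaTAM co-culture and 9.25 ± 0.824 CPM alone, and Ankrd37, described above, differed by -0.90 from BxTAM and -1.71 from MDM.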

How the data were processed

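RNA was measured by sequencing in 12 libraries. Per the labels' protocols, RNA was extracted with a column kit and a kit for stranded mRNA was used for the libraries. HISAT2, StringTie 1.3.0, CASAVA and the build Rnor_6.0 are named in the submitters' processing notes. The sources used here do not give the counting tool, annotation release or strand setting, so overlapping or antisense genes cannot be told apart. Per the file headers, the deposited table gives each gene's raw count and its FPKM, a value the authors scaled to length and library total; gene coordinates are the table's own. Of 30957 genes, 17963 had a count.

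The counts were tested in edgeR 4.0.16 (R 4.3.3), with filterByExpr by group (minimum count 10), TMM scaling and 1 quasi-likelihood fit over all 12 libraries with 1 mean per group (common dispersion 0.00218, 8 residual and 11.97 prior degrees of freedom). Genes were called at a Benjamini-Hochberg adjusted p under 0.05 over all 12360 tested genes. The standard error of a log2 change is the change divided by the square root of F. The code was tested on simulated data. The floor of 3 counts covers counting error only. No duplicated library was found; Pearson's r between replicates, across genes, was 0.994 to 0.995. Same-numbered libraries did not deviate together, so the numbers were not used as pairs.

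The 998 listed symbols form 43 lists; 968 were found by symbol, 16 through RefSeq, 12 fell on several genes and 2 on none, and the last 2 kinds were left out. Named genes are the 12 largest rises and falls at 5 CPM or more and 4 a side below it, up to 4 called members with the smallest p in each list, 8 fixed genes, and 8 a side beyond both other co-cultures. The largest rises and falls were taken among called genes with a usable symbol whose groups did not overlap. Further members were named after their values were seen. Members and lists were chosen with earlier results of these data known. Some genes the rule names are not reported here. Promoters are from RefSeq GRCr8. Alternatives were DESeq2 1.42.0, limma 3.58.1 on log2(FPKM + 1), other scalings and filters, the 6 libraries alone, a replicate block and each library left out.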

Additional observations from a re-analysis of the deposited data

Results flagged for a closer look

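In 54 genes the change against cells alone was called in one direction with MiaTAM and in the other with BxTAM, and the difference between the co-cultures was itself called by edgeR's quasi-likelihood test, adjusted by Benjamini-Hochberg; 14 of them were higher in MiaTAM co-culture and 40 lower. With MDM in place of BxTAM there were 248 such genes, 116 higher in MiaTAM co-culture and 132 lower. Both changes share the same cells alone, so an extreme value there would move them together.

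Cldn4, which encodes a claudin of tight junctions, was 1 of these genes. Its log2 change against cells alone was 0.45 ± 0.071 in MiaTAM co-culture, where BxTAM co-culture had -0.65 and MDM co-culture -0.26. MiaTAM minus BxTAM was 1.10 (adjusted p = 1.7e-08). In each co-culture the 3 libraries lay on 1 side of the cells alone. The cause was not tested.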

How the results depend on the processing

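No named gene changed direction under the alternatives run, but upper-quartile factors turned the balance of higher and lower genes (the alternatives were DESeq2 size factors or Wald test, upper-quartile factors, no filter or a filter at 1 CPM, the 6 libraries alone, the replicate block, limma on log2(FPKM + 1), and each library left out). The number of genes called at 2-fold or more, 1104, became 443 with limma on log2(FPKM + 1), which shrinks low genes, 2747 at 1.5-fold and 176 at 4-fold. Leaving out 1 library at a time gave 7561 to 7798 called genes, 3629 to 3816 higher, 3805 to 4057 lower and 1104 to 1185 at 2-fold, 4234 to 4777 against MDM co-culture and 1933 to 3113 against BxTAM co-culture; the last were lowest without MiaTAM library 2 (1933), BxTAM library 3 (1976) and BxTAM library 2 (1978). With upper-quartile factors 4664 were higher and 3446 lower, against 3877 and 4164 with TMM; limma gave 3659 and 4256. The replicate block gave 8021 called, 3870 higher and 4151 lower, 1099 at 2-fold, 5059 against MDM and 2993 against BxTAM co-culture; same-numbered MiaTAM and Schwann libraries had correlations of 0.0098, 0.064 and -0.023, so the numbers do not pair them. Alternatives for the last 2 comparisons were chosen after seeing the data. Of 2855 values for named genes, 2845 stayed on their side of the threshold, 8 lost their call (2 of Krt8 and 5 of Pdgfrb among them) and 2 gained it (Myc and Fgf2, without MiaTAM library 2). Of 1204 list counts 31 moved by more than 1.5 times. Depth limits the low genes, of which 44% were called in the lowest of 5 equal groups by level.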

Other observations

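The mitochondrial chromosome took 6.15% to 6.95% of counts in MiaTAM co-culture and 5.03% to 5.54% in cells alone. Of its 11 tested genes 8 fell and 1 rose, where 33.7% of all tested genes fell and 31.4% rose. Their median log2 change was -0.35. Mt-co1, a subunit of complex IV, rose by 0.70 ± 0.048 on the log2 scale, Mt-nd6 of complex I fell by 1.36 and Mt-nd4 by 0.43. Mt-atp6, of the ATP synthase, had 691, 760.5 and 802 CPM in MiaTAM co-culture, against 4453, 914 and 989 CPM alone, so that cells alone library 1 stood apart. Its log2 change was -1.5 ± 0.36, and -0.33 ± 0.05 (SE) without that library, still called by edgeR's quasi-likelihood test (adjusted p = 3.51e-05).

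Gene length hardly bore on the comparison with cells alone, whose median log2 change was between -0.044 and 0.0076 in each of 5 equal groups of genes by length. Against BxTAM co-culture the median difference was 0.0465 in the group of shortest genes, 0.0157, 0.00525 and -0.00336 in the groups between, and -0.0397 in the group of longest genes.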
